A study of Mus musculus with 14 samples.

Results

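Long noncoding RNAs that neurons express, 7 in all, were followed through RNA-seq of the mouse dorsal hippocampus, namely Meg3, Rian, Mirg, Malat1, Neat1, Miat and Snhg11. They were found by gene name, 1 row each in both count tables, among 27591 genes listed in either table. The mice were C57BL6 males aged 8 months. In the basal experiment, untrained wild-type mice (WT basal, 3 libraries) were compared with untrained THY-Tau22 mice (TAU basal, 2 libraries). In the learning experiment, saline-injected WT mice stayed in the home cage (WT VEH_HC, 3 libraries) or were trained in a spatial task (WT VEH, 2 libraries), and trained THY-Tau22 mice received the carrier particle CSP (TAU VEH, 2 libraries) or CSP carrying TTK21, an activator of the acetyltransferases CBP and p300 (TAU MOL, 2 libraries). THY-Tau22 mice, heterozygous and kept on C57BL6/J according to the study's methods, carry a mutated human Tau protein driven in neurons by a Thy1 promoter, so the model covers neuronal Tau only. Genotype and vehicle (CSP or saline) cannot be told apart in the comparison of TAU VEH with WT VEH. The 9 learning libraries are those left after the study set 3 aside a posteriori. The tissue was bulk, so that fewer cells of a type and less RNA per cell cannot be told apart.

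Meg3, Rian and Mirg lie in the imprinted Dlk1-Dio3 domain, where the maternal chromosome transcribes noncoding RNAs that host microRNAs and small nucleolar RNAs, while the paternal chromosome expresses the protein-coding genes Dlk1, Rtl1 and Dio3. Malat1 and Neat1 are neighbours and stay in the nucleus, Malat1 in nuclear speckles, where splicing factors are stored, and Neat1 as the scaffold of paraspeckles. Miat is a nuclear RNA of neurons that binds splicing factors, and Snhg11 is the host transcript of small nucleolar RNAs.

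In the mm9 genome build, Meg3 spans chromosome 12 from 110779211 to 110809936, Rian from 110842155 to 110899919 and Mirg from 110973191 to 110987665, all on the plus strand. The gap from Meg3 to Rian is 32.2 kb, and that from Rian to Mirg is 73.3 kb. The span of Meg3 holds 2 microRNA genes on its strand, that of Rian 4 with 13 small nucleolar RNA genes, and that of Mirg 9. Malat1 lies on chromosome 19 from 5795690 to 5802671 and Neat1 from 5824708 to 5845478, both on the minus strand and 22.0 kb apart. Miat lies on chromosome 5 from 112642248 to 112657968 on the minus strand. Snhg11 lies on chromosome 2 from 158201374 to 158211881 on the plus strand, where the annotation calls it protein-coding. The libraries kept no strand, and 7.75% of the exon bases of Meg3 and 6.09% of those of Malat1 are shared with another annotated gene (for Neat1 and Miat none).

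**Figure D1:**
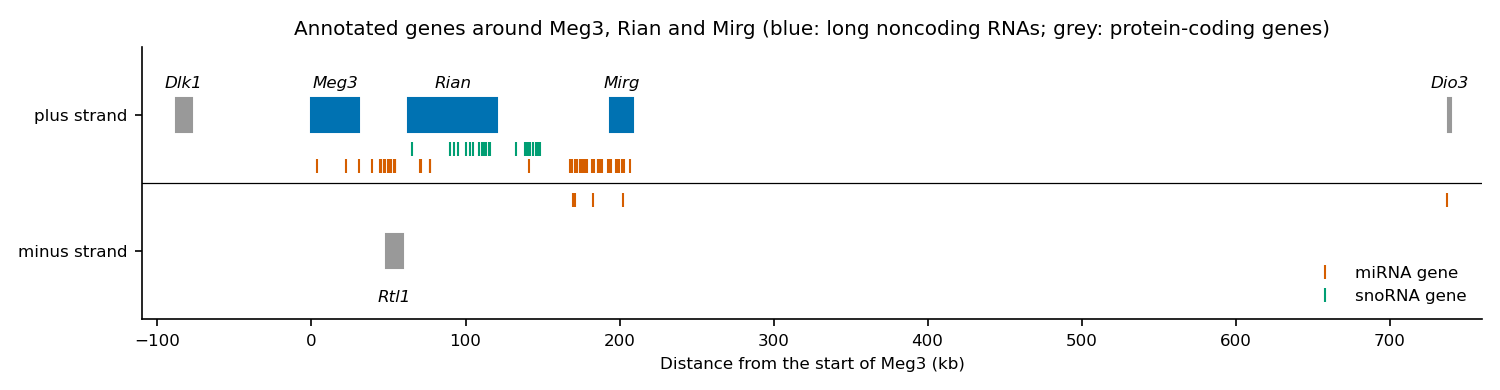
Map of the imprinted domain, with the distance from the start of Meg3 in kb on the horizontal axis and the 2 strands above and below the line; blue boxes are the long noncoding RNAs, grey boxes protein-coding genes, and ticks microRNA and small nucleolar RNA genes. The 3 noncoding RNAs follow each other on the plus strand, and Rtl1 lies on the minus strand between Meg3 and Rian.

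The microRNAs carried by the domain are given by their mature sequences because the long RNAs are their hosts. RefSeq (GRCm38.p6) held 22 mature sequences for the microRNA genes inside the 3 hosts, and these had 22 different seeds. The following were chosen as examples, miR-770-5p within Meg3, miR-370-3p within Rian, and miR-154-3p, miR-369-3p and miR-410-3p within Mirg, 5′ to 3′, with the seed (bases 2 to 8) in capitals.
miR-770-5p: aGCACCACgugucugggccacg
miR-370-3p: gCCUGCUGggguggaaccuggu
miR-154-3p: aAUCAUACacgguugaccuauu
miR-369-3p: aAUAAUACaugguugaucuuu
miR-410-3p: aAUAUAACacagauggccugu
The poly-A libraries did not measure these small RNAs. The highest count of any listed microRNA gene within Rian or Mirg was 12 in a library, and the 2 within Meg3 had no row in the tables.

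CBP is recruited by the factor CREB, which binds the cAMP response element TGACGTCA. This string, its shortened form TGACG, the TATA box TATAAA and the Egr1 string GCGTGGGCG were searched on both strands in the RefSeq promoters, from 250 bases before to 50 after each start, which were at hand for 6 of the 7 RNAs (no entry for Neat1). TGACGTCA was found in 1.79% of 32851 promoters and, among the RNAs described here, in 1 of the 2 promoters listed for Meg3, where it begins 57 bases upstream of the start. TATAAA was found in 13.6% of promoters and again in that promoter of Meg3, 25 bases upstream. The other Meg3 promoter (chr12:109545148-109545447, plus strand, GRCm38.p6) holds none of the strings. TGACG, which TGACGTCA contains, was found in 20.8% of promoters, those of Meg3 and Malat1 included, and GCGTGGGCG in 0.612% of promoters and in none of the 6. Capitals mark these strings, on either strand, in the Meg3 promoter (chr12:109540746-109541045, plus strand, GRCm38.p6) and the Malat1 promoter (chr19:5802623-5802922, minus strand, GRCm38.p6), 5′ to 3′.
Meg3 promoter: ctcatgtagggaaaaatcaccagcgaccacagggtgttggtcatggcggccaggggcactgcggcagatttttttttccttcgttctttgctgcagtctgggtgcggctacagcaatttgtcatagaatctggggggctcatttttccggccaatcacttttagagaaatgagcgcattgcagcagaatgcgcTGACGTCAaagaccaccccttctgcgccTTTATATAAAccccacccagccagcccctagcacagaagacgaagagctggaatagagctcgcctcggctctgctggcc
Malat1 promoter: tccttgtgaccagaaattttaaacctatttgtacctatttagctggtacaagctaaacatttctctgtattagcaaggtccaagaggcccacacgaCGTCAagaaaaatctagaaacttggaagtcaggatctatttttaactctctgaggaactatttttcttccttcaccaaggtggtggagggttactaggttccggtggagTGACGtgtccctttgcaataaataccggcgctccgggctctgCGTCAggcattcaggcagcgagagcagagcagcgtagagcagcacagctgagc

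The libraries were purified on poly-T beads, and mature Malat1 ends in a tract of A bases encoded in the genome rather than in a poly-A tail. A run of 12 A was found 298 bases before the annotated end of Malat1, within chr19:5795964-5796023 of mm9 on the minus strand, printed 5′ to 3′ with the run in capitals.
Malat1 A-rich tract: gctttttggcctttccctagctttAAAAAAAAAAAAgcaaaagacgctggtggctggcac
Meg3 holds a longer run, of 16 A, 25909 bases before its annotated end. Runs of at least 12 A occur in the exons of 6.15% of 37310 annotated genes. Whether bead capture of Malat1 or Meg3 differed between libraries was not tested.

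Counts on genes ran from 28639121 to 37681155 per library in the basal experiment and from 24693713 to 52180305 in the learning experiment. Values are given in CPM, counts scaled to a common library size with TMM factors computed within each experiment. Some libraries stood apart before any test. The rank correlation (rho, over genes) of the GC content of a gene with its deviation from the mean in a library was 0.48 and -0.60 in the 2 TAU basal libraries, from 0.067 to 0.32 in WT basal, from 0.085 to 0.45 in the 5 WT learning libraries and from -0.62 to -0.40 in the 4 TAU ones. The summed level of 14 choroid plexus markers lay between 78.1 and 235 CPM in WT VEH_HC, 1573 and 2435 in WT VEH, 239 and 283 in TAU VEH, and in TAU MOL between 709 and 774. The neuron markers (9 of 10 had a tested row) summed to between 6113 and 7428 CPM in all 14 libraries.

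The RNAs described here made up between 0.147% and 0.273% of all counts, with the highest share in TAU basal replicate 2. Meg3 supplied between 31.6% and 44.9% of it. The other RNAs than Mirg had between 2050 and 47499 counts in every library. Mirg had between 76 and 313 counts, and at its lowest count the 95% counting error was 22.5% of the value, against at most 4.33% for the others (counting error only).

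Levels were compared between genes per kb of annotated exon. In WT basal libraries, Snhg11 had 41.5 ± 5.64 CPM per kb (SD, n = 3), Rian 36.5 ± 1.58, Malat1 31.8 ± 7.48, Meg3 30.9 ± 4.86, Miat 18.1 ± 2.32, Neat1 4.51 ± 1.01 and Mirg 1.45 ± 0.261. Neighbours in this order from Snhg11 to Meg3 differed by no more than their summed SD, whereas Miat, Neat1 and Mirg each lay below the RNA before them by more than that. In WT VEH the order was Meg3 (36.6 ± 4.25 CPM per kb, SD, n = 2), Snhg11 (35.4 ± 2.67), Rian (30.8 ± 0.0766), Miat (22.8 ± 0.295), Malat1 (19.7 ± 3.47), Neat1 (3.59 ± 0.947) and Mirg (1.41 ± 0.101). Here Meg3 and Snhg11, and Miat and Malat1, differed by less than their summed SD. The exon length of Neat1 covers its long isoform, which carries no poly-A tail, so the value per kb of Neat1 is an average over bases that poly-T beads capture unequally.

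Meg3, a noncoding RNA of the maternal chromosome, had the highest CPM of these RNAs in every library, with no correction for exon length. Per kb of exon, its mean lay below those of Snhg11, Rian and Malat1 in WT basal and was the highest in WT VEH. Meg3 had 561, 471 and 647 CPM in WT basal replicates 1 to 3 and 547 and 965 in the TAU basal libraries. In the learning experiment it had 1006, 957 and 630 CPM in WT VEH_HC, 717 and 608 in WT VEH, 724 and 537 with CSP (TAU VEH), and 729 and 740 with CSP-TTK21 (TAU MOL). TAU basal replicate 2 and WT VEH_HC replicates 1 and 2 were high, and the third home-cage library lay among the trained ones.

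Rian, the host of box C/D small nucleolar RNAs next to Meg3, varied least. It had 286, 300 and 312 CPM in WT basal and 258 and 346 in TAU basal, and in the learning experiment 231, 239 and 227 in WT VEH_HC, 253 and 252 in WT VEH, 239 and 218 with CSP (TAU VEH), and 246 and 256 with CSP-TTK21 (TAU MOL). The highest of the 9 learning libraries was 1.17 times the lowest, whereas for the other RNAs this ratio lay between 1.52 and 2.20. Mirg, the host of a microRNA cluster, was the rarest, with 4.08, 5.55 and 4.15 CPM in WT basal and 3.85 and 4.65 in TAU basal, and 5.39, 6.30 and 4.57 in WT VEH_HC, 4.69 and 4.24 in WT VEH, 4.60 and 2.87 with CSP (TAU VEH), and 4.76 and 4.69 with CSP-TTK21 (TAU MOL). Its low value was TAU VEH replicate 2, the library with the fewest counts.

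Malat1 had 217, 172 and 277 CPM in WT basal and 273 and 475 in TAU basal, so that the groups overlapped and TAU basal replicate 2 was the highest of all libraries. In the learning experiment it had 161, 151 and 118 CPM in WT VEH_HC, 154 and 120 in WT VEH, 175 and 131 with CSP (TAU VEH), and 143 and 180 with CSP-TTK21 (TAU MOL). Neat1 had 96.9, 71.4 and 113 CPM in WT basal and 84.0 and 105 in TAU basal, and then 126, 81.2 and 85.7 in WT VEH_HC, 88.4 and 60.6 in WT VEH, 92.5 and 77.4 with CSP (TAU VEH), and 102 and 83.1 with CSP-TTK21 (TAU MOL). For both RNAs the groups compared within each experiment overlapped.

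Miat had 152, 142 and 181 CPM in WT basal and 174 and 224 in TAU basal. In the learning experiment it had 287, 375 and 219 CPM in WT VEH_HC, 198 and 201 in WT VEH, 213 and 174 with CSP (TAU VEH), and 182 and 202 with CSP-TTK21 (TAU MOL). The 3 home-cage libraries were the highest of the 9. Snhg11 had 322, 330 and 409 CPM in WT basal and 327 and 516 in TAU basal, and then 423, 449 and 292 in WT VEH_HC, 318 and 285 in WT VEH, 370 and 250 with CSP (TAU VEH), and 361 and 373 with CSP-TTK21 (TAU MOL). As for Meg3, the third home-cage library of Snhg11 lay among the trained ones.

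**Figure D2:**
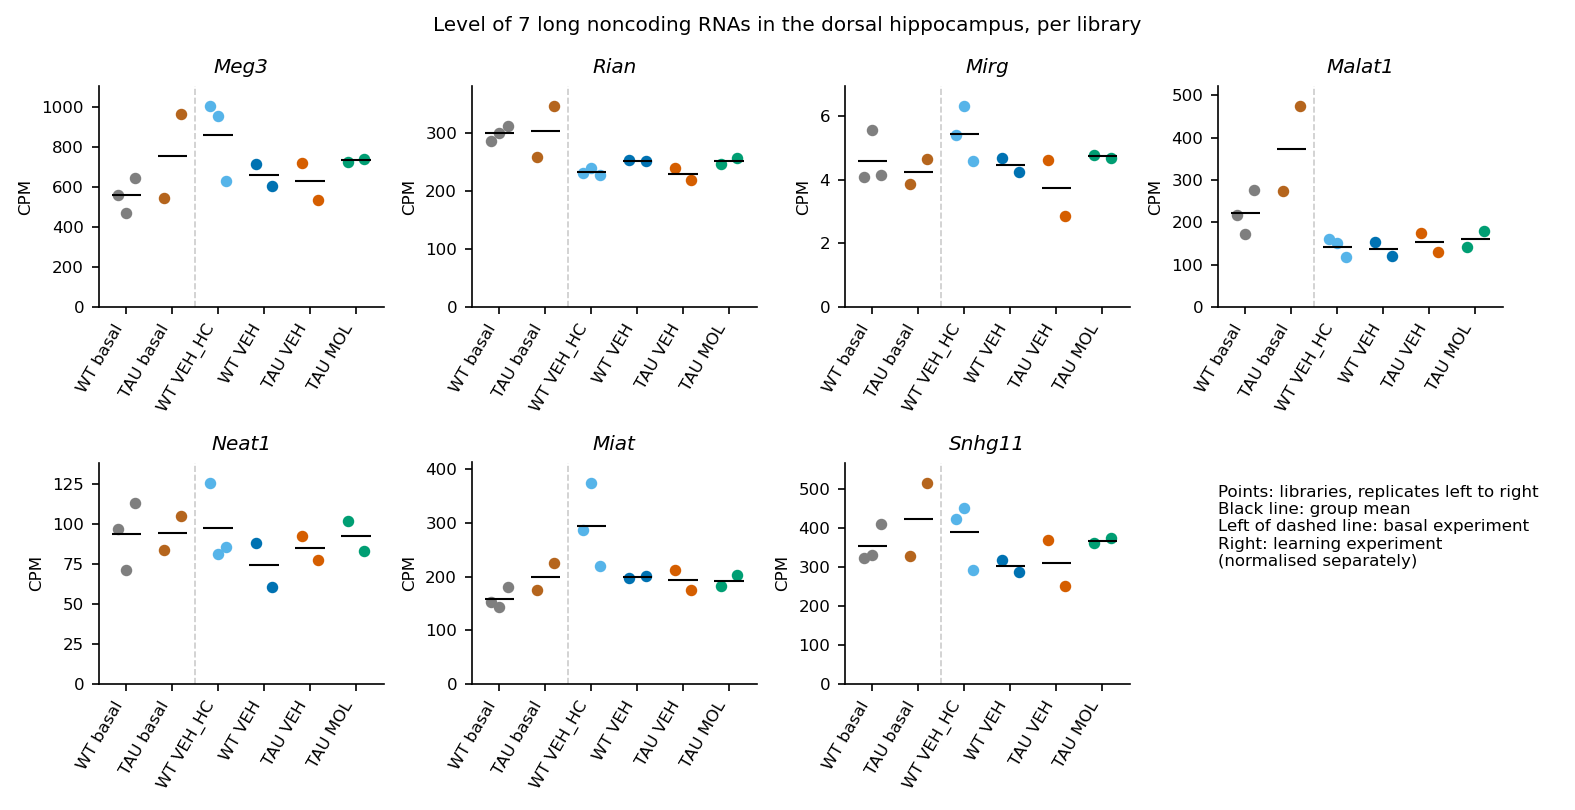
CPM of each long noncoding RNA (vertical axes, from 0) in every library of the 6 groups; points are libraries, the black line is the group mean, and the dashed line parts the experiments, which were scaled separately. Rian stays between 218 and 256 CPM in the learning libraries, while Meg3, Miat and Snhg11 are high in WT VEH_HC replicates 1 and 2.

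Between untrained THY-Tau22 and WT mice, none of the RNAs passed the test. Genes were called by edgeR's quasi-likelihood test if their adjusted p was below 0.05 and their log2 fold change was over 0.2 in size, and 0.0245% of 16324 genes were called. At an unadjusted p under 0.05, 2 of the 7 RNAs were found (4.92% of all genes), and DESeq2 called 0 (0.228% of genes). For none did the libraries of the groups stay apart, as they did for 18.5% of genes. The log2 fold changes were 0.75 for Malat1 (standard error 0.24, unadjusted p = 0.0096, adjusted p = 0.90), 0.43 for Meg3 (standard error 0.22), 0.33 for Miat (standard error 0.15, unadjusted p = 0.049), 0.25 for Snhg11 (standard error 0.19), 0.01 for Rian, 0.01 for Neat1 and -0.11 for Mirg. Their median was 0.25, against -0.0072 over all genes. The values depended on which TAU basal library was kept. Without replicate 2 the log2 fold change was 0.30 for Malat1, 0.14 for Miat, -0.03 for Meg3 and -0.11 for Snhg11, and without replicate 1 it was 1.12, 0.53, 0.81 and 0.57. The choroid plexus markers summed to between 274 and 441 CPM in WT basal and between 401 and 1313 in TAU basal, and with their mean level as a covariate the log2 fold change was 0.37 for Malat1, 0.18 for Miat, 0.0119 for Meg3 and -0.0691 for Snhg11. Malat1 was called in 2 alternatives, with every gene of at least 1 count tested (adjusted p = 0.0085) and with the replicate number as a block (log2 fold change 0.90, adjusted p = 0.022), and its adjusted p ran from 0.0085 to 1.0 over 15 alternatives. WT basal replicate 3 has a block of its own and drops out of the block fit. With that library left out and no block, the log2 fold change of Malat1 was 0.94 and edgeR did not call it (adjusted p = 0.64).

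Spatial training was compared with the home cage in WT mice. Of the 7 RNAs 0 were called, against 8.4% of 16820 genes, 1 had an unadjusted p under 0.05 (27.8% of all genes), and DESeq2 called 0 (13.8% of genes). Miat came nearest, with 199 ± 2.58 CPM (SD, n = 2) after training and 294 ± 78.3 (SD, n = 3) in the home cage, a log2 fold change of -0.56 (95% confidence interval -0.93 to -0.19, adjusted p = 0.062). Its libraries did not overlap, which held in the lower direction for 20.8% of genes. The log2 fold changes of Neat1 (-0.39, standard error 0.19), Meg3 (-0.38, standard error 0.18), Snhg11 (-0.36, standard error 0.18), Mirg (-0.28, standard error 0.19) and Malat1 (-0.06, standard error 0.16) were also below 0. Rian was at 0.12 (standard error 0.06) with no overlap, as 23.0% of genes in that direction. The median over the RNAs was -0.36, against -0.0028 over all genes.

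The calls depended on the third home-cage library and on the filter on low counts. With all libraries and every gene of at least 1 count tested, edgeR called Miat (adjusted p = 2.7e-11), Meg3 (adjusted p = 1.2e-05), Neat1 (adjusted p = 4.9e-05) and Snhg11 (adjusted p = 5.3e-05) lower after training. In that fit the standard error of Meg3 was 0.07, against 0.18 in the main fit, and the share of all genes called is not given here. Without the third home-cage library, Miat (log2 fold change -0.73, adjusted p = 0.0064), Meg3 (-0.57, adjusted p = 0.014) and Snhg11 (-0.53, adjusted p = 0.031) were called lower after training in edgeR's test, while 2798 genes were called in place of 1413. The choroid plexus markers moved with training, with 14 of 14 called higher at a median log2 fold change of 3.50. In a fit with their mean level as a covariate the log2 fold changes were 1.02 for Miat (standard error 0.36), 0.94 for Meg3 (standard error 0.51) and 1.0 for Snhg11 (standard error 0.49), none called. The marker sums of these groups did not overlap, so training and covariate can hardly be told apart in this fit.

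Trained THY-Tau22 mice were compared with trained WT mice, and 0 of the 7 RNAs were called in edgeR's test, against 14.4% of 16820 genes. None had an unadjusted p under 0.05 (27.1% of all genes), and DESeq2 called 0 (18.6% of genes). Rian was lower in both TAU VEH libraries than in both WT VEH libraries, with 229 ± 14.8 CPM (SD, n = 2) against 252 ± 0.628 (SD, n = 2), a log2 fold change of -0.14 (95% confidence interval -0.29 to 0.01, adjusted p = 0.20), and 29.4% of genes did not overlap in this direction. After a correction of each library for gene length and GC content, the log2 fold change of Rian was -0.31 and it was called (adjusted p = 0.031), whereas it was 0.0067 with library size alone as the scaling and -0.0771 without TAU VEH replicate 2. Exons of Rian hold 40.0% GC, below the median of 50.0% over the genes tested. The other log2 fold changes lay between -0.22 (Mirg, standard error 0.21) and 0.19 (Neat1, standard error 0.21), with -0.07 for Meg3, 0.16 for Malat1, -0.04 for Miat and 0.04 for Snhg11. The intervals of Meg3 (-0.49 to 0.35) and Snhg11 (-0.38 to 0.46) leave room for changes of either sign. The choroid plexus markers moved in this comparison too, with 13 of 14 called lower (median -2.51). With their mean level as a covariate the log2 fold changes were -1.08 for Miat (standard error 0.26), -0.94 for Meg3 (0.36), -0.86 for Snhg11 (0.35), -0.84 for Mirg (0.44), -0.33 for Malat1 (0.39), -0.27 for Rian (0.14) and 0.27 for Neat1 (0.52), none called. The marker sums of these groups did not overlap, so group and covariate can hardly be told apart in this fit.

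TAU MOL mice were compared with WT VEH and with TAU VEH, comparisons that share libraries with each other and with the former one. Against WT VEH, 0 of the 7 RNAs were called in edgeR's test, where 5.63% of genes were. None of them had an unadjusted p under 0.05 (19.8% of genes), and DESeq2, which gave Mirg no adjusted p, called 0 (12.7% of genes). Snhg11 had 367 ± 8.13 CPM (SD, n = 2) against 301 ± 22.7 (SD, n = 2), or 0.28 as a log2 fold change (adjusted p = 0.47, standard error 0.19), and Meg3 735 ± 7.98 against 663 ± 76.9, a log2 fold change of 0.15 (standard error 0.19). Both were higher with no overlap, as 25.6% of genes. Snhg11 was called when only these 2 groups were fitted (adjusted p = 0.028) and when every gene of at least 1 count was tested (adjusted p = 0.011), and Neat1 (log2 fold change 0.31, standard error 0.21) in the latter fit (adjusted p = 0.0073). The others lay between -0.05 (Miat) and 0.23 (Malat1). Of the choroid plexus markers 8 of 14 were called lower, and with their mean level as a covariate the log2 fold change was -0.18 for Snhg11, -0.30 for Meg3, -0.58 for Miat and 0.35 for Neat1, none called.

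Against TAU VEH, the comparison of CSP-TTK21 with its carrier, edgeR called 0% of genes and 0 of the 7 RNAs, also 0 at an unadjusted p under 0.05 (6.33% of genes), and DESeq2 called 0.351% of genes and 0 of the RNAs. Mirg (log2 fold change 0.30, standard error 0.21), Meg3 (0.22, standard error 0.19) and Rian (0.13, standard error 0.07) were higher in both treated libraries, as 21.5% of genes were. Snhg11 was at 0.24, Neat1 at 0.12, Malat1 at 0.07 and Miat at -0.01, with overlap. Replicate 2 of TAU VEH was the lower library for each RNA, and without it the log2 fold changes were 0.0391 for Mirg, 0.0215 for Meg3, 0.0709 for Rian, -0.0103 for Snhg11, 0.0021 for Neat1, -0.12 for Malat1 and -0.15 for Miat. Without replicate 1 of TAU VEH they were 0.72 for Mirg, 0.45 for Meg3, 0.21 for Rian and 0.56 for Snhg11. With the choroid plexus covariate they were 0.61 for Mirg, 0.65 for Meg3, 0.20 for Rian and 0.69 for Snhg11, none called, where the markers had a median log2 fold change of 1.17 and 0 of 14 were called.

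**Figure D3:**
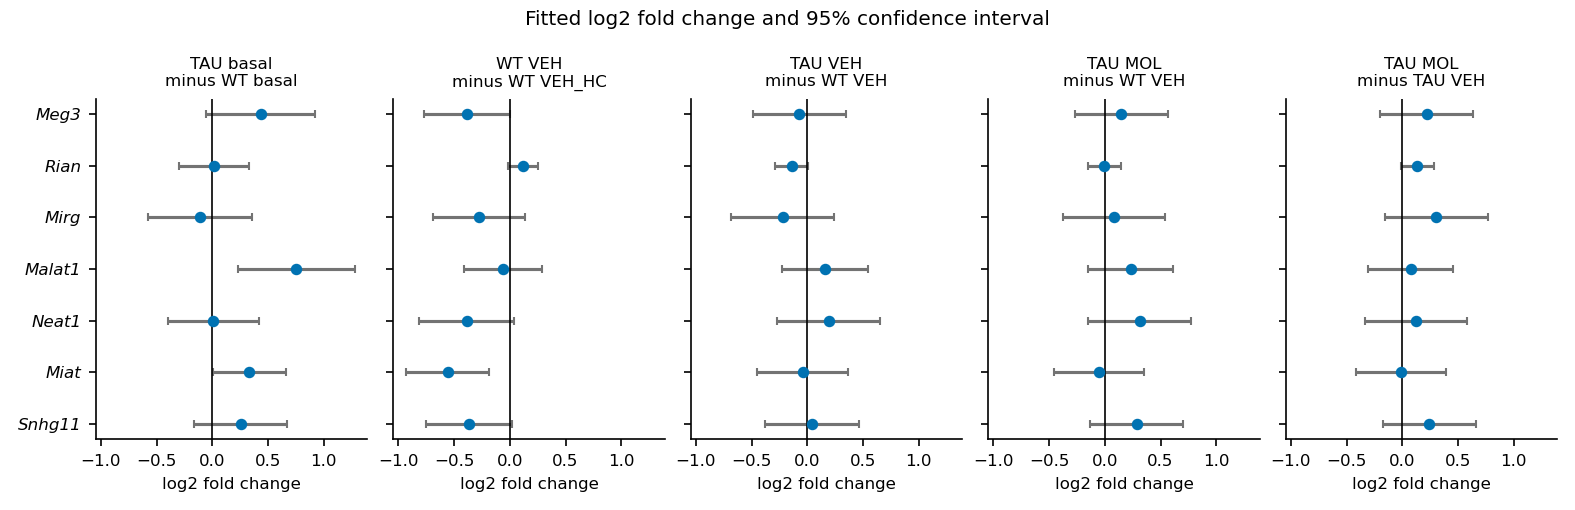
Fitted log2 fold change (horizontal axes) of each RNA in the 5 comparisons, with bars for 95% confidence intervals from edgeR. The intervals of Malat1 and Miat in the basal comparison and that of Miat after training exclude 0, and neither RNA passed the adjustment over all genes.

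Whether the genotype difference changed between the experiments was tested in a fit of all 14 libraries. Of the 7 RNAs 0 were called in edgeR's test (0.129% of 17026 genes were), none had an unadjusted p under 0.05 (7.78% of genes), and DESeq2 called 0 (0.687% of genes). The difference, trained minus basal, was -0.56 for Malat1 on the log2 scale (95% confidence interval -1.26 to 0.13, adjusted p = 0.71) and -0.47 for Meg3 (-1.15 to 0.21). Without TAU basal replicate 2 these values were -0.14 and -0.0322, and without replicate 1 they were -0.89 and -0.80. The others lay between -0.34 for Miat (standard error 0.26) and 0.21 for Neat1 (standard error 0.31).

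In some pairs of replicates these RNAs differed in common, and in others they did not. All 7 were higher in TAU basal replicate 2 than in replicate 1, by a median of 0.42 on the log2 scale, while 49.4% of all genes were higher. All 7 were lower in TAU VEH replicate 2 than in replicate 1 (median -0.42, 49.3% of genes), and all 7 were lower in WT VEH_HC replicate 3 than in replicate 1 (median -0.44, 47.7% of genes). All 7 were higher in WT basal replicate 3 than in replicate 1 (median 0.22, 49.3% of genes), and 6 of 7 were higher in replicate 3 than in replicate 2 (median 0.35, 50.3% of genes). Between WT basal replicates 1 and 2, 3 were higher and 4 lower in replicate 2, and between WT VEH_HC replicates 1 and 2, 4 were higher and 3 lower. In WT VEH, 6 of 7 were lower in replicate 2 (51.1% of genes), and in TAU MOL 5 of 7 were higher in replicate 2 (52.3% of genes). The GC rho was 0.48 in TAU basal replicate 1 and -0.60 in replicate 2, and -0.62 in TAU VEH replicate 1 and -0.41 in replicate 2, and its part in these shifts was not tested.

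Over the 9 learning libraries, which share depth, scaling and GC dependence within a library, the levels of the RNAs were related as follows, with no test. Of 21 pairs, Meg3 and Snhg11 were the closest (Pearson's r = 0.95, Spearman's rho = 0.97, and r = 0.95 without the 2 libraries farthest from the median of Meg3). For Meg3 and Mirg r was 0.87 (rho = 0.90, r = 0.94 without the 2 libraries), for Meg3 and Miat 0.81 (rho = 0.63, r = 0.77), and for Malat1 and Neat1 0.49 (rho = 0.43, r = 0.19). Meg3 and Rian, which lie next to each other on the same strand, had r = 0.19 (rho = 0.23, r = 0.01).

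**Figure D4:**
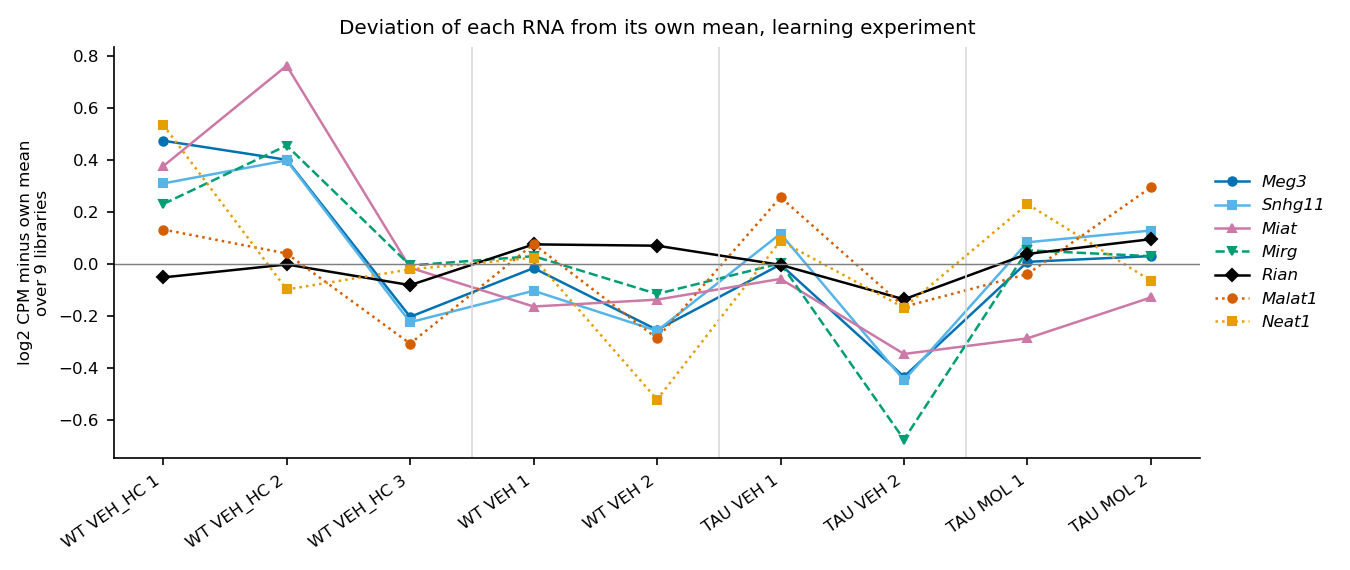
Deviation of each RNA from its own mean (vertical axis, log2 CPM) in the 9 learning libraries, ordered by group; lines join the values of 1 RNA and carry no order. Meg3, Snhg11, Miat and Mirg are above 0 in WT VEH_HC replicates 1 and 2 and lowest in TAU VEH replicate 2, while Rian stays between -0.14 and 0.09.

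Ratios of counts within a library need no scaling. Rian counts were 51.1%, 63.7% and 48.3% of Meg3 counts in WT basal, 47.2% and 35.8% in TAU basal, 23.0%, 25% and 36.0% in WT VEH_HC, and from 33.0% to 41.4% in the 6 trained libraries. Both TAU basal libraries lay below the WT basal ones. The ratio was lowest in the 2 home-cage libraries with high Meg3. Mirg counts were between 0.482% and 1.18% of Meg3 counts, between 0.534% and 0.726% in the learning libraries, and no order of the groups was read from it at the low counts of Mirg. Neat1 counts were 44.6%, 41.4% and 40.8% of Malat1 counts in WT basal and 30.7% and 22.1% in TAU basal, so that these groups did not overlap in this ratio either. The levels of 18.5% of single genes did not overlap between these groups, and the share for ratios was not computed. In the learning libraries this ratio lay between 46.3% and 78.4%, with overlap of all groups. No test was run on the ratios.

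**Figure D5:**
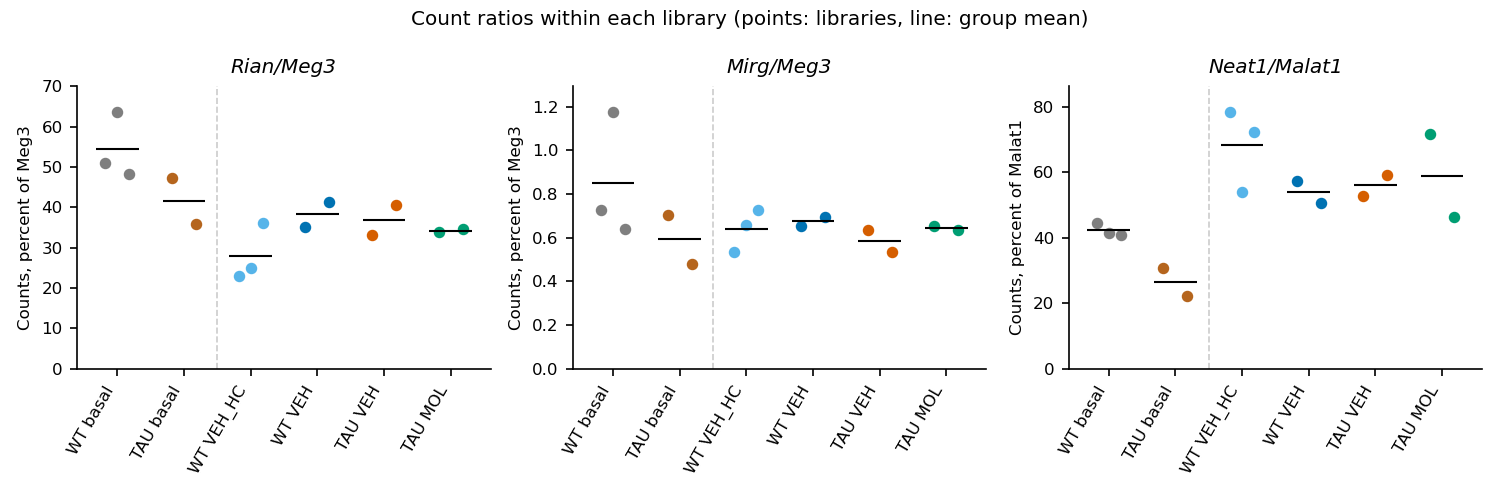
Counts of Rian and Mirg in percent of Meg3, and of Neat1 in percent of Malat1 (vertical axes, from 0), in each library of the 6 groups, with points for libraries and a line for the group mean. The 2 TAU basal libraries lie below the 3 WT basal ones in the ratios of Rian to Meg3 and of Neat1 to Malat1, and overlap them in that of Mirg to Meg3.

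The genes whose levels were most like each RNA over the 9 learning libraries were sought where the mean level reached 10 CPM. They were Snhg11 (r = 0.95), Tmem127 (r = 0.94) and Mcm3ap (r = 0.94) for Meg3, and Meg3 (r = 0.95), Insr (r = 0.93) and Rnf169 (r = 0.92) for Snhg11. For Miat they were Foxk2 (r = 0.98), Snrnp70 (r = 0.97) and Sugp2 (r = 0.97), and 115 of 9339 genes had r above 0.9 with it, against 14 for Meg3 and 0 for Rian. For Rian they were 2010305A19Rik (r = 0.90), Prdm2 (r = 0.89) and Spry4 (r = 0.88), and for Mirg Epb4.1l4b (r = 0.96, rho = 0.78), D2Wsu81e (r = 0.93, rho = 0.67) and Pfas (r = 0.93, rho = 0.82). For Malat1 they were Cttnbp2 (r = 0.93), Arnt (r = 0.93) and Elavl1 (r = 0.91), and for Neat1 Eml1 (r = 0.93, rho = 0.53), Slc38a1 (r = 0.91) and Sema6d (r = 0.90). Where no rho is given it lay between 0.80 and 0.97.

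The protein-coding genes of the imprinted domain were expressed at low levels, and 0 of the 3 were called in any of the 5 comparisons by edgeR. Dlk1, a transmembrane protein related to Notch ligands, had 8.89, 4.11 and 10.3 CPM in WT basal and 3.01 and 3.60 in TAU basal (log2 fold change -1.23, standard error 0.34, unadjusted p = 0.0047, adjusted p = 0.86). In the learning experiment it had 13.1, 6.22 and 6.57 CPM in WT VEH_HC, 5.29 and 4.79 in WT VEH, 2.86 and 2.26 with CSP (TAU VEH), and 8.21 and 3.97 with CSP-TTK21 (TAU MOL). The TAU libraries with no TTK21 lay below the untrained or trained WT libraries they were compared with, and the libraries of the groups did not overlap for 18.5% of genes in the basal comparison (either direction) and for 29.4% in TAU VEH against WT VEH (lower). Against WT VEH the log2 fold change of Dlk1 in TAU VEH was -0.95 (standard error 0.40, adjusted p = 0.15), and in TAU MOL against TAU VEH it was 1.23 (standard error 0.40, adjusted p = 0.57). Dio3, a deiodinase that inactivates thyroid hormone, had 2.11, 1.75 and 0.954 CPM in WT VEH_HC and 0.338 and 0.821 in WT VEH (log2 fold change -1.47, standard error 0.43, adjusted p = 0.054), on 14 to 87 counts. Rtl1, derived from a retrotransposon, lay between 1.09 and 2.24 CPM in all libraries. The libraries kept no strand, and microRNA genes of the plus strand lie opposite Rtl1. Whether its counts include RNA of that strand was not tested.

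The nearest protein-coding gene on either side of each RNA was taken among those tested in both experiments. Of these 9 genes, 1 was called in edgeR's test (8.4% of all genes were called after training and 14.4% in TAU VEH against WT VEH). This was Lbp, 42.8 kb from Snhg11, which encodes a protein that binds lipopolysaccharide. It was called higher after training (log2 fold change 1.31, adjusted p = 0.0040), and in TAU VEH it was called lower, against WT VEH (-1.18, adjusted p = 0.0039). These comparisons share the WT VEH libraries, and the choroid plexus markers moved in the same directions (14 of 14 called higher and 13 of 14 called lower), whose part in the values of Lbp was not tested. Snhg11 itself was at -0.36 and 0.04. Frmd8, beside the pair of Malat1 and Neat1, lay between -0.43 and 0.17 in the 5 comparisons, C130026L21Rik and Cryba4 beside Miat between -0.73 and 0.62, and Ralgapb beside Snhg11 between -0.14 and 0.24, none called.

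Of 14 tested genes for paraspeckle proteins, the partners of Neat1, 0 were called by edgeR in the basal comparison (median log2 fold change -0.02) and 0 in TAU MOL against TAU VEH (median -0.0019). In TAU VEH against WT VEH, Rbm14 (-0.39, adjusted p = 0.0035), which builds paraspeckles, and the chromatin remodeller Smarca4 (-0.22, adjusted p = 0.030) were among those called lower, and 0 were called higher, where 14.4% of all genes were called. The median of the group was 0.05, with 9 of 14 genes above 0. In TAU MOL against WT VEH, which uses the same WT VEH libraries, Rbm14 was called lower (-0.33, adjusted p = 0.022), where 5.63% of all genes were called, and the median was 0.04.

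Of 18 genes of nuclear speckles, where Malat1 resides, 4 were called after training by edgeR, which called 8.4% of all genes there. The splicing factors Srsf7 (0.38, adjusted p = 0.015) and Srsf3 (0.36, adjusted p = 0.030) rose on the log2 scale, and Srsf5 (-0.42, adjusted p = 0.0074) and U2af2 (-0.23, adjusted p = 0.038) fell, with a median of -0.09 over the group. In TAU VEH against WT VEH, Son, a core protein of speckles, was called higher (0.30, adjusted p = 0.031) and Srrm1 lower (-0.31, adjusted p = 0.0083), where 14.4% of all genes were called, with a median of 0.08. In the other 3 comparisons 0 of the 18 were called, with medians of 0.0023, 0.10 and 0.04.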

How the data were processed

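Poly-A RNA-seq libraries of the dorsal hippocampus were analysed, 5 basal and 9 learning, 1 per mouse as far as the study describes. P-values measure the spread between these libraries. The authors aligned single-end reads to mm9 with TopHat 2.0.10 and Bowtie 2.1.0 and counted unique reads on Ensembl genes with HTSeq 0.5.4p3. They deposited raw counts per gene, used for all values here. The normalized signal deposited beside them, counts divided by 1 factor per library, was not used. No column lacked a sample (0). The 138 lines of the learning table with no values were left out.

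The test was edgeR 4.0.16 (R 4.3.3), quasi-likelihood F, TMM factors, filterByExpr, Benjamini-Hochberg over all genes. Basal libraries were fitted alone, the 9 learning libraries in 1 fit, and all 14 for the difference between experiments. Log2 CPM carried a prior count of 1. DESeq2 1.42.0 was the alternative tool. The fits were tested on simulated counts first. Loci, exon lengths and GC content came from the NCBIM37 genome with GENCODE annotation, promoters and microRNAs from RefSeq (GRCm38.p6). Other steps used Python 3.11.15, pandas 2.3.3, scipy 1.17.1 and matplotlib 3.10.9.

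The RNAs, lists and tests were chosen with earlier results of these data known. Genes named beside the RNAs are up to 4 called genes per list and comparison, the nearest coding neighbours tested in both experiments and the 3 most similar genes. Depth leaves a 95% counting error of at most 4.33% for all RNAs but Mirg. Some genes of the lists and neighbours are not reported here.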

Additional observations from a re-analysis of the deposited data

How the results depend on the processing

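With 2 or 3 libraries per group, the standard errors of the 7 RNAs ran from 0.06 to 0.24 on the log2 scale in the 5 comparisons. Of 637 log2 fold changes under alternative settings, 545 kept their direction and their side of the threshold, 21 became called and 71 changed sign. In the 5 comparisons they include the main fit called with no limit on the fold change, where no value could change. The cause of a change was not tested.

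The number of RNAs called was 0 in each comparison and stayed 0 in every alternative run for TAU MOL against TAU VEH and for the difference between the experiments. In the basal comparison it was 1 (Malat1) with no filter on low counts and 1 with the replicate block. After training it was 4 with no filter (Meg3, Neat1, Miat and Snhg11), 4 with the replicate block (the same RNAs), 3 with the GC and length correction and the block together (Meg3, Miat and Snhg11), and between 0 and 3 when a library was left out, with 3 only without WT VEH_HC replicate 3. In the block fit that library has a block of its own and drops out, as WT basal replicate 3 does in the basal block fit. In TAU VEH against WT VEH it was 1 (Rian) with the GC and length correction, with or without the block, and in TAU MOL against WT VEH 2 (Neat1 and Snhg11) with no filter and 1 (Snhg11) with only the groups compared. The replicate numbers did not pair the libraries, since correlations of same-numbered libraries lay between -0.16 and 0.24. For the fits that gained calls, other than that without WT VEH_HC replicate 3, the share of all genes called is not given here. The counts of RNAs called in them therefore cannot be set against it.

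Signs changed as follows on the log2 scale, in fits where the RNA was not called. In each comparison of the learning experiment the choroid plexus marker sums of the groups did not overlap. Group and covariate can therefore hardly be told apart in those fits. With the choroid plexus covariate, the change after training became 0.67 for Malat1, 0.94 for Meg3, 1.02 for Miat, 0.65 for Mirg and 1.0 for Snhg11. It became -0.33 for Malat1 and -0.86 for Snhg11 in TAU VEH against WT VEH, and -0.0235 for Malat1, -0.30 for Meg3, -0.23 for Mirg and -0.18 for Snhg11 in TAU MOL against WT VEH. It became 0.50 for Miat in TAU MOL against TAU VEH, and -0.0943 for Neat1, -0.20 for Rian and -0.0691 for Snhg11 in the basal comparison. With the GC and length correction, and then with the replicate block added, Neat1 became -0.14 and -0.0253 and Rian -0.16 and -0.17 in the basal comparison, Rian -0.0095 and -0.0342 after training, Miat 0.0910 and 0.0957 and Snhg11 -0.0655 and -0.0730 in TAU VEH against WT VEH, and Miat 0.0361 and 0.0339 in TAU MOL against WT VEH. With library size alone, Meg3 became 0.0747, Miat 0.10 and Rian 0.0067 in TAU VEH against WT VEH, Miat 0.0654 and Rian 0.11 in TAU MOL against WT VEH, and Mirg 0.0047 in the difference between the experiments. Rian in TAU MOL against WT VEH became 0.0048 with DESeq2, 0.0060 with its size factors and 0.0045 with only the groups compared.

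Leaving out a library in turn gave these ranges where the sign changed. In the basal comparison they were -0.0326 to 0.81 for Meg3, -0.21 to 0.23 for Rian, -0.26 to 0.0634 for Mirg, -0.16 to 0.19 for Neat1 and -0.11 to 0.57 for Snhg11, with signs changing without TAU basal replicate 2 (Mirg without TAU basal replicate 1), and also without WT basal replicate 1 for Rian and replicate 2 for Mirg and Neat1. After training the range was -0.25 to 0.11 for Malat1 (WT VEH replicate 2 and WT VEH_HC replicate 1). In TAU VEH against WT VEH they were -0.31 to 0.13 for Meg3, -0.64 to 0.0418 for Mirg, -0.0740 to 0.36 for Malat1, -0.0572 to 0.50 for Neat1, -0.20 to 0.0921 for Miat and -0.27 to 0.29 for Snhg11, where each of the 4 libraries changed the sign of at least 1 RNA. In TAU MOL against WT VEH they were -0.0341 to 0.0219 for Rian (TAU MOL replicate 1, WT VEH replicate 1) and -0.14 to 0.0209 for Miat (TAU MOL replicate 1). In TAU MOL against TAU VEH they were -0.12 to 0.30 for Malat1, -0.0320 to 0.26 for Neat1, -0.15 to 0.14 for Miat and -0.0103 to 0.56 for Snhg11, where again each of the 4 libraries changed a sign. In the difference between the experiments they were -0.29 to 0.0807 for Rian, -0.49 to 0.19 for Mirg, -0.0386 to 0.52 for Neat1 and -0.49 to 0.16 for Snhg11 (TAU basal replicate 2, TAU VEH replicate 2, WT basal replicate 1 and WT VEH replicate 2).

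Of 84 group levels recomputed with another scaling, 75 moved by less than 1 SD, and all lay between 95.1% and 107% of the TMM level. With promoters taken from the mm9 annotation, TGACGTCA was in 1.61%, TGACG in 18.6%, TATAAA in 16.2% and GCGTGGGCG in 0.536% of 37310 promoters, with the same RNAs holding them.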

Other observations

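Other imprinted genes and other long noncoding RNAs were tested as lists beside the 7 RNAs. The list of imprinted genes, with 26 tested, also includes Dlk1, Rtl1 and Dio3 of the domain described above. Of the 26, edgeR called 0 in the basal comparison and 0 in TAU MOL against TAU VEH. After training, Cdkn1c, a cell cycle inhibitor, rose by 0.89 on the log2 scale (adjusted p = 0.025) and Kcnk9, a potassium channel, fell by 0.43 (adjusted p = 0.038), with a median of -0.10 over the list, so that 2 of 26 were called where 8.4% of all genes were. In TAU VEH against WT VEH, Ube3a, a ubiquitin ligase, (0.40, adjusted p = 0.022) and Usp29 (0.53, adjusted p = 0.045) were called higher, and Cdkn1c (-0.89, adjusted p = 0.020) and the growth factor Igf2 (-1.51, adjusted p = 0.033) were among 3 called lower, with a median of 0.04, where 14.4% of all genes were called. In TAU MOL against WT VEH, Impact was called higher (0.24, adjusted p = 0.043), with a median of 0.17, where 5.63% of all genes were called. Of 32 other long noncoding RNAs, 15 had a tested row, and edgeR called 1 of them in 1 comparison, 1700020I14Rik, higher in TAU VEH than in WT VEH (0.36, adjusted p = 0.010), where 14.4% of all genes were called. The choroid plexus markers, which moved with Cdkn1c and Igf2 in direction, were called lower in TAU VEH against WT VEH for 13 of 14, and their part in these values was not tested.

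Cell type markers were called as follows by edgeR, in tested genes of each list. In the basal comparison and in TAU MOL against TAU VEH, 0 genes of any list were called. After training, 2 of 10 astrocyte and 2 of 10 microglia markers were called higher, 2 of 8 dentate granule markers lower, 1 of 8 CA3 markers higher and 1 lower, and 0 of the neuron, oligodendrocyte, endothelial and CA1 markers. The shares of all genes called were 8.4% after training, 14.4% in TAU VEH against WT VEH and 5.63% in TAU MOL against WT VEH. In TAU VEH against WT VEH, 3 of 9 neuron markers and 5 of 8 CA1 markers were called lower, 3 of 10 astrocyte and 3 of 8 CA3 markers higher, 1 of 10 microglia markers lower, and 0 oligodendrocyte, endothelial and dentate granule markers. In TAU MOL against WT VEH, 2 neuron, 2 CA1, 1 CA3, 1 microglia, 1 endothelial and 8 choroid plexus markers were called lower, 2 astrocyte markers higher, and 0 oligodendrocyte and dentate granule markers.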
